A study of Mus musculus with 9 samples.

Results

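The transcripts described are 10 genes of the Notch signalling pathway, taken by symbol from a table of 17527 mouse gene symbols. They are the receptors Notch1, Notch2 and Notch3, the ligands Jag1, Jag2 and Dll1, the DNA-binding factor Rbpj, and the target genes Hes1, Hey1 and Nrarp. All 10 were found, and all 10 were among the 13711 genes with enough counts to be tested. RNA was sequenced from the anterior lens capsule of mice, the front part of the membrane that encloses the lens, with the lens epithelium on its inner face. There were 3 libraries from aged mice that received epigallocatechin gallate (EGCG), the main catechin of green tea, 3 from aged control mice and 3 from young control mice. The sources used here do not give strain, ages, sex, or the dose, route and duration of EGCG. The series' design text speaks of duplicate samples and does not say whether libraries came from separate animals. The p-values thus measure the spread between these libraries, which may be technical.

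Notch receptors are cell surface proteins that are activated by ligands of the Jagged and Delta families on a neighbouring cell. Ligand binding leads to cleavage first by an ADAM protease and then by gamma-secretase, and the freed intracellular domain enters the nucleus, where it joins RBPJ and Mastermind coactivators at target genes. Without that domain RBPJ is held with corepressors. The best known targets encode the HES and HEY repressors and NRARP, a small inhibitor that feeds back on the pathway. In the lens, Jagged1 in newly formed fibre cells signals to the epithelium, and Notch signalling is known for keeping epithelial progenitors dividing and for the orderly formation of fibre cells.

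The 250 bases before the annotated start are shown for 3 members whose own promoters hold letters that the pathway's DNA-binding proteins are known to recognise. The motifs searched on both strands were TGGGAA, the core of the RBPJ site, and CACNAG, the N box bound by HES proteins, and their matches did not overlap. Capitals mark every match, read on either strand. The sequences are those of RefSeq on GRCm38.p6, given 5′ to 3′ on the gene's strand, for Rbpj (the first of its listed starts) at chr5:53590096-53590345 on the plus strand, Nrarp at chr2:25180508-25180757 on the plus strand and Notch1 at chr2:26503823-26504072 on the minus strand.
Rbpj: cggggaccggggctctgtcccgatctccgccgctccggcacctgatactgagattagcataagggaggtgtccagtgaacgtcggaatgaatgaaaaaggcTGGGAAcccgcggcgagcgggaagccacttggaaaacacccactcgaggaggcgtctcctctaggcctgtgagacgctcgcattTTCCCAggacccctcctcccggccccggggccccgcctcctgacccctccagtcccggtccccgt
Nrarp: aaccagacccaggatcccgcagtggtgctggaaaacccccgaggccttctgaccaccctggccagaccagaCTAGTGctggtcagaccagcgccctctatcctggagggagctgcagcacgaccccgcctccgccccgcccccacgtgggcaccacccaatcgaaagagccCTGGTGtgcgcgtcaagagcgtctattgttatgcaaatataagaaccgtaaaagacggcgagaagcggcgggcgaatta
Notch1: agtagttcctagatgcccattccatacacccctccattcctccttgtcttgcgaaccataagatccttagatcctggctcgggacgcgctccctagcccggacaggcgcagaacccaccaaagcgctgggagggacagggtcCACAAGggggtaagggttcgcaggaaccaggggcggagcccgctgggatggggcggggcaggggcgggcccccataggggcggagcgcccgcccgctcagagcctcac
In Rbpj, TGGGAA lay from 149 to 144 and, on the opposite strand, from 65 to 60 bases before the start. In Nrarp, CACNAG lay on the opposite strand from 179 to 174 and from 79 to 74 bases before the start, and in Notch1 on the gene's strand from 108 to 103 bases before it. Promoters were matched for 8 of the 10 members, of which 1 held TGGGAA and 4 held CACNAG (also Notch2 and Notch3). The shares of all 32841 mouse promoters of that length were 21.6% for TGGGAA and 36.7% for CACNAG. Hes1 and Hey1 were not matched. The stretches shown for Rbpj and Notch1 lie within the GENCODE spans given for these genes below, which begin further upstream. A match is a description of letters and not a measured site.

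Libraries held 13184169 to 16528179 counts. Levels are counts scaled to a common library total (CPM) after scaling with TMM factors, which were 0.981 to 0.989 in aged EGCG, 0.881 to 0.926 in aged control and 1.118 to 1.131 in young control libraries, and a count of 3 came to 0.183 to 0.232 CPM. The tissue label was set beside marker lists, and all 15 lens epithelium and all 21 lens fibre markers reached at least 1 CPM on average. So did all 29 rod and cone, 16 bipolar and inner retina and 14 Müller glia markers. This bar therefore does not tell lens from retina. Markers of rods and cones were also present and differed widely between groups, with summed levels of 11607 to 11836 CPM in aged EGCG, 1492 to 1556 CPM in aged control and 26340 to 26521 CPM in young control libraries. Their part in the results below was not tested. In such bulk samples, fewer cells of a type and less RNA per cell cannot be told apart.

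Hes1 and Hey1 showed the largest changes among the 10 members in the comparison of aged control with young control with TMM scaling. With libraries scaled to lens epithelium genes, other members had larger ones, among them Dll1 (-1.53), Notch1 and Jag1 (-0.934 each). With the length trend removed Rbpj did (1.11). That setting took gene lengths from the authors' length-scaled values (FPKM), with 28807 bases for Rbpj against 5485 for its longest coding transcript. Both Hes1 and Hey1 encode basic helix-loop-helix repressors that are switched on directly by Notch. Both were about 2-fold higher in aged control than in young control capsules, and both were lower in aged EGCG than in aged control capsules. The aged EGCG libraries lay between the other groups for both genes, near to young control. The receptors Notch1 and Notch2 were also lower with EGCG, whereas the ligand Jag1 was higher.

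**Figure D1:**
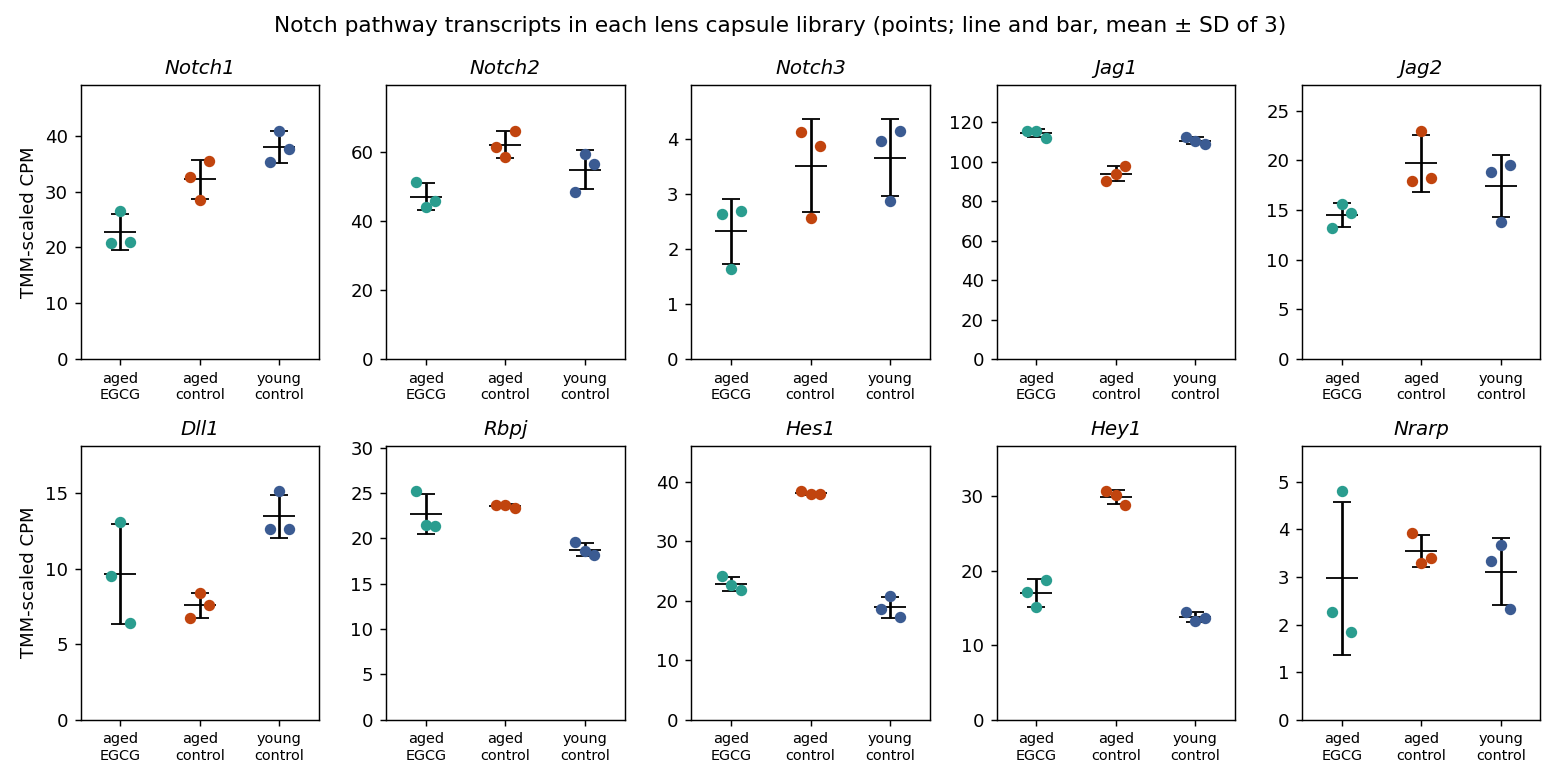
Level of each of the 10 Notch pathway transcripts in TMM-scaled CPM (vertical axis, from 0) in aged EGCG, aged control and young control libraries, with 1 point per library and the mean ± SD of 3. For Hes1 the aged control libraries sit between 37.9 and 38.4 CPM, above all aged EGCG and young control libraries, and for Jag1 they sit below all others.

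Hes1 (chromosome 16, 30064384 to 30067796, plus strand, GRCm38) had 24.2, 22.6 and 21.8 CPM in aged EGCG, 38.4, 37.9 and 38.0 CPM in aged control, and 18.6, 20.9 and 17.2 CPM in young control libraries. The 3 groups did not overlap. Hes1 was 2.02-fold higher in aged control than in young control (log2 fold change 1.01, SE 0.104, adjusted p = 6.6e-12). It was 1.67-fold lower in aged EGCG than in aged control (log2 fold change -0.74, SE 0.104, adjusted p = 1.41e-07). Both calls held under all 18 alternative settings, with log2 fold changes of 0.317 to 1.09 for age and -0.78 to -0.538 for EGCG.

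Hey1 (chromosome 3, 8663359 to 8667256, minus strand) had 17.1, 15.1 and 18.8 CPM in aged EGCG, 30.7, 30.2 and 28.9 CPM in aged control, and 14.5, 13.3 and 13.7 CPM in young control libraries. Again no group overlapped another. Hey1 was 2.16-fold higher in aged control than in young control (log2 fold change 1.11, SE 0.117, adjusted p = 1.39e-11) and 1.76-fold lower in aged EGCG than in aged control (log2 fold change -0.82, SE 0.117, adjusted p = 2.11e-07). These calls, too, held under all 18 alternatives, with log2 fold changes of 0.419 to 1.15 for age and -0.891 to -0.616 for EGCG. No other annotated gene overlaps Hes1 or Hey1.

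The remaining gap between aged EGCG and young control was small for both targets. Hes1 was higher in aged EGCG by 0.27 on the log2 scale (SE 0.108, adjusted p = 0.0244) and Hey1 by 0.30 (SE 0.122, adjusted p = 0.032). A call was made in 11 of 18 alternatives for Hes1 and in 10 of 18 for Hey1. In 1 of these for each gene, with libraries scaled to lens epithelium genes, the call was lower, at -0.319 for Hes1 and -0.296 for Hey1. Without aged EGCG replicate 1 the adjusted p was 0.0827 for Hes1 and 0.0587 for Hey1.

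Nrarp (chromosome 2, 25180758 to 25183339, plus strand), whose product slows Notch signalling by binding the intracellular domain, did not follow them. It had 2.27, 4.80 and 1.84 CPM in aged EGCG, 3.92, 3.30 and 3.41 CPM in aged control, and 3.34, 3.68 and 2.32 CPM in young control libraries. The groups overlapped, and aged EGCG replicate 2 stood 2.61 times above the lowest library of its group. The log2 fold change was 0.19 for aged control against young control (95% interval -0.466 to 0.841, adjusted p = 0.62) and -0.24 for aged EGCG against aged control (-0.908 to 0.42, adjusted p = 0.656). A change as large as that of Hey1 with EGCG therefore lies within the interval for Nrarp. The antisense gene Gm38287 covers nearly all of Nrarp, and without knowledge of strand in the counting, reads of the pair cannot be told apart.

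Among the receptors, Notch1 and Notch2 were lower in aged EGCG than in aged control, and Notch3 was not called. Notch1 (chromosome 2, 26457903 to 26516663, minus strand) is a broadly used receptor. It had 20.9, 26.5 and 21.0 CPM in aged EGCG, 32.7, 28.6 and 35.5 CPM in aged control, and 35.4, 40.9 and 37.6 CPM in young control libraries. Every aged EGCG library lay below every other library, while the highest aged control library just exceeded the lowest young control library. Notch1 was 1.41-fold lower in aged EGCG than in aged control (log2 fold change -0.50, SE 0.108, adjusted p = 0.000351) and 1.66-fold lower than in young control (-0.73, SE 0.106, adjusted p = 5.86e-08). The second of these calls held under all 18 alternatives and the first under 17. In aged control against young control the log2 fold change was -0.24 (SE 0.103, adjusted p = 0.0379), a call that 13 of 18 alternatives kept. It turned to 0.177, not called, once each library's trend with gene length was removed, and leaving out aged control replicate 2 gave -0.151 with an adjusted p of 0.241.

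Notch2 (chromosome 3, 98013527 to 98150361, plus strand) had 51.3, 43.9 and 45.9 CPM in aged EGCG, 61.4, 58.4 and 66.1 CPM in aged control, and 48.5, 59.3 and 56.5 CPM in young control libraries. The aged EGCG libraries were all below the aged control libraries, and the young control libraries overlapped both. Notch2 was 1.32-fold lower in aged EGCG than in aged control (log2 fold change -0.40, SE 0.0825, adjusted p = 0.000186), which 16 of 18 alternatives kept. The difference between aged control and young control was 0.18 on the log2 scale (SE 0.0808, adjusted p = 0.0493). That call is at the edge of the threshold, and only 9 of 18 alternatives made a call. The value turned to -0.144 with library size only, to -0.119 in limma and to -0.52 with scaling to lens epithelium genes, the last being itself called.

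Notch3 (chromosome 17, 32120820 to 32166852, minus strand), best known from vascular smooth muscle and pericytes, had the lowest level of the receptors among the members. It had 2.63, 1.64 and 2.68 CPM in aged EGCG, 4.13, 2.56 and 3.87 CPM in aged control, and 3.97, 2.87 and 4.15 CPM in young control libraries. Replicate 2 was the lowest library in each group. Its log2 fold change was -0.60 in aged EGCG against aged control (95% interval -1.26 to 0.054, adjusted p = 0.194) and -0.06 in aged control against young control (-0.681 to 0.558, adjusted p = 0.868). The listed antisense genes Gm17276 at Notch3 and 0610009E02Rik and Gm13568 at Notch1 touch exons of those receptors. At Notch2 the gene Gm42820, on the same strand, touches an exon as well.

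The ligands moved in different directions. Jag1 (chromosome 2, 137081456 to 137116644, minus strand), the principal Notch ligand of the lens, had 116, 116 and 112 CPM in aged EGCG, 90.2, 93.9 and 97.8 CPM in aged control, and 113, 111 and 109 CPM in young control libraries. The aged control libraries were below all others, and the aged EGCG and young control libraries overlapped. Jag1 was 1.22-fold higher in aged EGCG than in aged control (log2 fold change 0.29, SE 0.0589, adjusted p = 0.000161), a call kept by all 18 alternatives. It was 1.18-fold lower in aged control than in young control (-0.24, SE 0.0585, adjusted p = 0.00038). Every alternative called that comparison, but with the length trend removed the direction turned to 0.258. The length used there for Jag1 was 11717 bases, against 5612 for its longest coding transcript. The log2 difference between aged EGCG and young control was 0.05 (95% interval -0.0685 to 0.165, adjusted p = 0.478). That value moved with scaling, and 4 of 18 alternatives called it, from -0.545 on the lens epithelium scale and -0.146 with library size only to 0.139 on the lens fibre scale and 0.531 with the length trend removed.

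Dll1 (chromosome 17, 15367354 to 15376872, minus strand), a Delta-type ligand, had 9.51, 13.1 and 6.44 CPM in aged EGCG, 6.74, 8.42 and 7.59 CPM in aged control, and 12.7, 15.1 and 12.6 CPM in young control libraries. The aged control libraries lay below all young control libraries, and the aged EGCG libraries spread across both groups. Dll1 was 1.78-fold lower in aged control than in young control (log2 fold change -0.83, SE 0.185, adjusted p = 0.000111), under all 18 alternatives. The log2 fold change for aged EGCG against aged control was 0.36 (95% interval -0.0269 to 0.744, adjusted p = 0.186), and it was called without aged EGCG replicate 3 (0.581, adjusted p = 0.0212) and on the lens fibre scale (0.556, adjusted p = 0.018). Without aged EGCG replicate 2 it was 0.0752 (adjusted p = 0.855). Against young control, aged EGCG was lower (log2 fold change -0.47, SE 0.181, adjusted p = 0.0214), with an adjusted p of 0.238 without that replicate. The span of the opposite-strand gene A930024N18Rik touches exons of Dll1.

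Jag2 (chromosome 12, 112907819 to 112929776, minus strand), the second Jagged ligand, had 13.2, 15.6 and 14.6 CPM in aged EGCG, 17.9, 23.0 and 18.2 CPM in aged control, and 18.9, 13.8 and 19.5 CPM in young control libraries. The aged EGCG libraries were all below the aged control libraries. Jag2 was 1.36-fold lower in aged EGCG than in aged control (log2 fold change -0.44, SE 0.139, adjusted p = 0.0145), which 12 of 18 alternatives kept. Without aged control replicate 2 it was -0.316 with an adjusted p of 0.156, and without aged EGCG replicate 1 it was -0.38 with an adjusted p of 0.0674. In aged control against young control the log2 fold change was 0.18 (95% interval -0.0918 to 0.452, adjusted p = 0.235).

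Rbpj (chromosome 5, 53466152 to 53657362, plus strand), the DNA-binding partner of every Notch receptor, had 25.2, 21.5 and 21.4 CPM in aged EGCG, 23.7, 23.7 and 23.4 CPM in aged control, and 19.5, 18.6 and 18.1 CPM in young control libraries. Both aged groups lay above young control, and they overlapped each other. Rbpj was 1.26-fold higher in aged control than in young control (log2 fold change 0.33, SE 0.113, adjusted p = 0.00832), but the value depended on scaling. The call was lost with library size only (0.0108), on the lens fibre scale (0.223) and in limma (0.00478), the sign turned to -0.363, called, on the lens epithelium scale, and the value was 1.11 with the length trend removed. For aged EGCG against aged control the log2 fold change was -0.06 (95% interval -0.285 to 0.168, adjusted p = 0.77). The processed copies Rbpj-ps1 and Rbpj-ps3 are annotated elsewhere in the genome, and counting could split reads between them and Rbpj.

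Per kilobase of the longest coding transcript, Jag1 and Hes1 had the highest levels of the 10. Jag1 had 20.4 ± 0.362 CPM per kb in aged EGCG, 16.7 ± 0.675 in aged control and 19.7 ± 0.336 in young control libraries (SD, n = 3 each), and Hes1 had 15.6 ± 0.82, 26.0 ± 0.182 and 12.9 ± 1.25 in the same groups. Hes1 thus stood above Jag1 in aged control capsules and below it in the others on this scale. Hey1 followed with 7.02 ± 0.767 CPM per kb in aged EGCG, 12.3 ± 0.382 in aged control and 5.70 ± 0.258 in young control libraries. Notch2 had 4.48 to 5.90, Rbpj 3.42 to 4.30, Jag2 2.84 to 3.85, Notch1 2.40 to 4.003 and Dll1 2.12 to 3.77 CPM per kb as group means. The range of Notch2 lay above the others, and those of Rbpj, Jag2, Notch1 and Dll1 overlapped. Nrarp had 1.15 to 1.37 and Notch3 0.29 to 0.457 CPM per kb. The order of Jag1 and Hes1 depends on the length used, since the length implied by the authors' FPKM values is 11717 bases for Jag1 against 5612 bases for its longest coding transcript. In the deposited FPKM values Hes1 exceeded Jag1 in all 3 groups. The place of Rbpj depends on it too, with an implied length of 28807 bases against 5485 for its longest coding transcript. As group means Rbpj had 0.733 to 0.775 FPKM, below Nrarp with 1.13 to 1.36 FPKM.

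**Figure D2:**
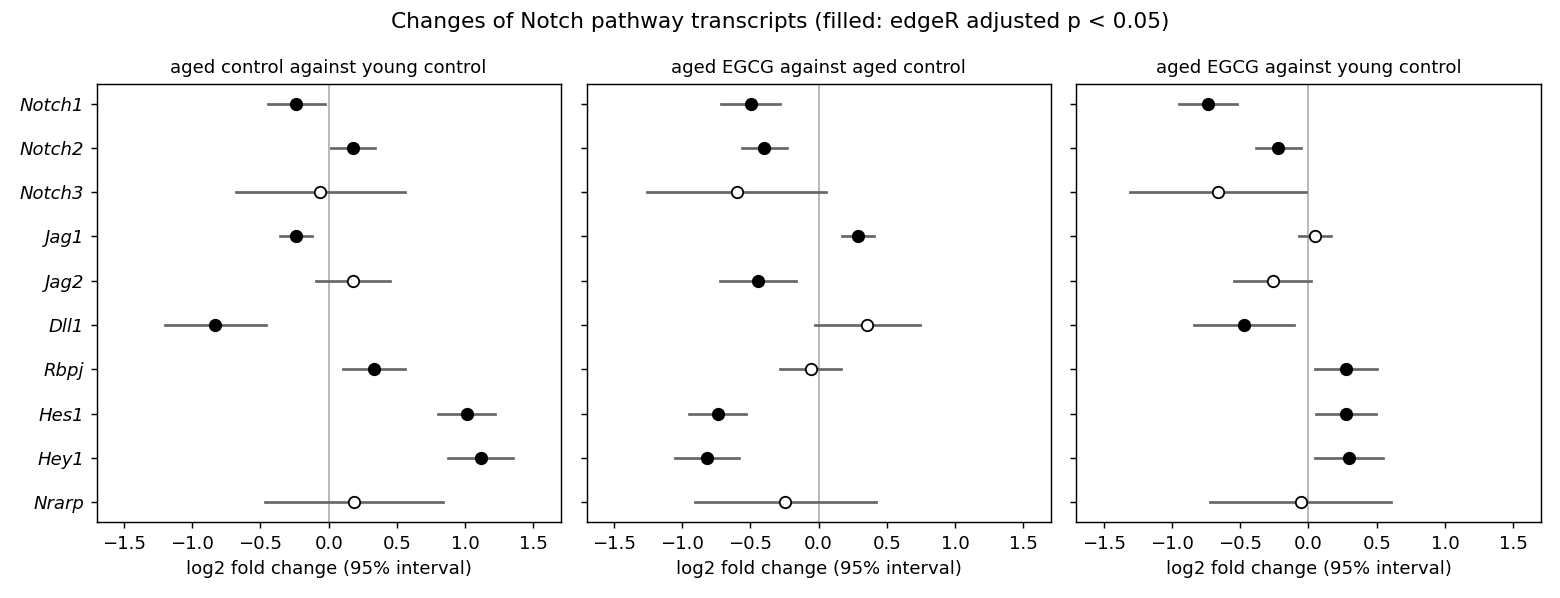
Log2 fold change of each member with its 95% interval (horizontal axis) in the 3 comparisons, 1 panel each, with filled points for genes with an edgeR adjusted p under 0.05. Hes1 and Hey1 lie to the right in aged control against young control and to the left in aged EGCG against aged control, where Jag1 is the filled point to the right.

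In aged control against young control, 4 members were called higher (Hes1, Hey1, Rbpj and Notch2) and 3 lower (Notch1, Jag1 and Dll1), and 69.2% of all genes tested were called, 35.4% higher and 33.8% lower. The 2 groups did not overlap for 5 members, beside 72.1% of all genes. The median log2 fold change of the members was 0.178, beside 0.0234 over all genes, and the median size of the change was 0.238, beside 0.592. The share of members called was therefore near that of all genes, and their changes were mostly smaller. Removing the trend with gene length gave 6 members called higher and 1 lower, and scaling to lens epithelium genes gave 2 higher and 7 lower.

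In aged EGCG against aged control, 1 member was called higher (Jag1) and 5 lower (Notch1, Notch2, Jag2, Hes1 and Hey1), while 24.1% of all genes were called, 13.8% higher and 10.3% lower. The 2 groups did not overlap for the 6 called members, beside 33.5% of all genes. The median log2 fold change was -0.42 for the members and -0.00383 for all genes, and the median size was 0.42 against 0.191. Scaling to lens fibre genes left 3 members called lower and 2 higher, and limma on the FPKM values left 2 lower, which were Hes1 and Hey1.

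In aged EGCG against young control, 3 members were called higher (Rbpj, Hes1 and Hey1) and 3 lower (Notch1, Notch2 and Dll1), and 63.6% of all genes were called, 32.3% higher and 31.4% lower. The 2 groups did not overlap for 5 members, beside 68.3% of all genes. None was called higher with DESeq2, with library size only, in limma or with scaling to lens epithelium genes, and none without aged EGCG replicate 1 or without young control replicate 3. Notch2 turned to 0.225, called, with the length trend removed, against -0.22 (SE 0.0824, adjusted p = 0.0179). The members' median log2 fold change was -0.139, beside -0.0155 for all genes. The 3 comparisons share their libraries in pairs, so they are not independent of each other.

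**Figure D3:**
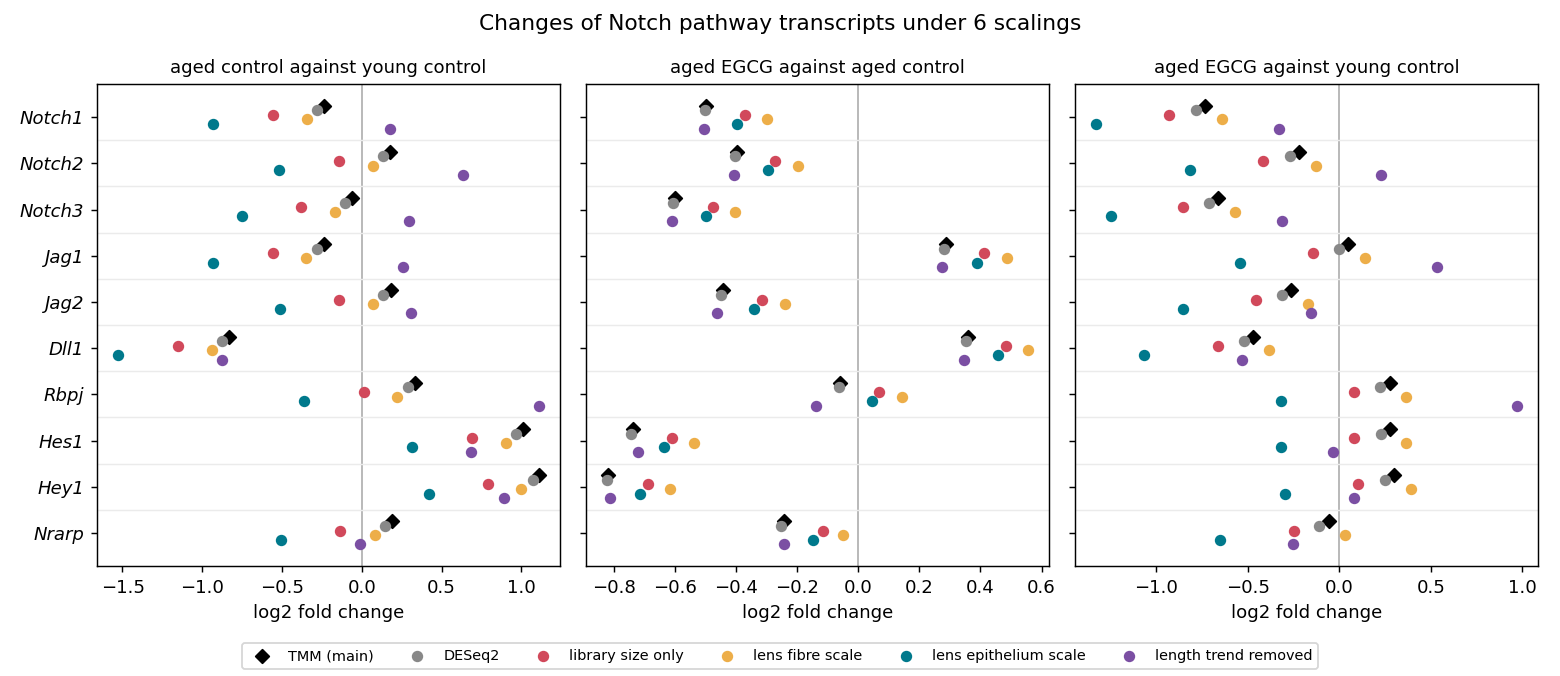
Log2 fold change of each member (horizontal axis) in the 3 comparisons under 6 ways of scaling the libraries, in different colours, with diamonds for TMM. Hes1 and Hey1 stay on 1 side of 0 in aged control against young control and in aged EGCG against aged control. Dll1 also stays on 1 side in the first of these, where all other members fall on both sides.

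Of 74 further genes listed for the pathway, 71 were in the table and 66 were tested. In aged control against young control 24 were called higher and 21 lower, where 69.2% of all genes were called. The counts were 5 higher and 9 lower in aged EGCG against aged control, beside 24.1% of all genes called, and 21 higher and 19 lower in aged EGCG against young control, beside 63.6%. These shares are near those of all genes. Their median log2 fold changes were 0.162, -0.0646 and -0.0655 in the 3 comparisons.

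Hes5 and Ccnd1, of the further target genes, were higher in aged control than in both other groups. Hes5, a close relative of Hes1, had 11.6, 6.17 and 8.67 CPM in aged EGCG, 18.6, 16.0 and 12.1 CPM in aged control, and 6.05, 6.48 and 7.33 CPM in young control libraries. The aged control libraries were above all others. Hes5 was 2.35-fold higher in aged control than in young control (log2 fold change 1.23, SE 0.188, adjusted p = 1.42e-07) and 1.77-fold lower in aged EGCG than in aged control (-0.82, SE 0.185, adjusted p = 0.000548). Ccnd1, which encodes the cell cycle regulator cyclin D1, had 238, 244 and 228 CPM in aged EGCG, 346, 327 and 341 CPM in aged control, and 132, 139.6 and 134 CPM in young control libraries. Ccnd1 was 2.50-fold higher in aged control than in young control (adjusted p = 3.94e-27) and 1.43-fold lower in aged EGCG than in aged control (adjusted p = 6.32e-12). These calls of Hes5 and Ccnd1 held under each scaling tried. Hes6, named after its values were seen, was higher in aged control than in young control (log2 fold change 0.63, adjusted p = 0.000425), which was lost with library size only, on the lens epithelium scale and with the length trend removed. Its log2 fold change for aged EGCG against aged control was -0.06 (adjusted p = 0.822).

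In the list of other Notch targets, 3 of 5 tested genes were called higher in aged control than in young control, beside 35.4% of all genes. In aged EGCG against aged control 3 of 5 were called lower, beside 10.3% of all genes. They were Ccnd1, Id3 and Sox9 both times. Id3, an inhibitor of basic helix-loop-helix factors, had 40.5 ± 2.42 CPM in aged EGCG, 62.7 ± 5.11 in aged control and 49.9 ± 1.87 in young control libraries (SD, n = 3 each). Its log2 fold change was -0.63 with EGCG (SE 0.081, adjusted p = 1.53e-08), under every scaling tried. Its rise with age (0.33, adjusted p = 0.000267) turned to -0.364, called, with scaling to lens epithelium genes, and to -0.151, not called, with the length trend removed. It was also not called with library size only (0.00742) or in limma (0.0058). Sox9, named after its values were seen, is a transcription factor that the list shares with the Müller glia markers. It had log2 fold changes of 0.60 with age (adjusted p = 1.77e-05), turning to -0.0997 on the lens epithelium scale, and -0.46 with EGCG (adjusted p = 0.0027), which was not called on the lens fibre scale (-0.255, adjusted p = 0.0918). Myc and Nfkb2 were not called in any comparison.

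Hey2, another HEY repressor, was at a low level. It averaged 2.46 ± 0.558 CPM in aged EGCG, 2.57 ± 0.983 in aged control and 4.24 ± 0.564 in young control libraries (SD, n = 3 each), with log2 fold changes of -0.71 for aged control (adjusted p = 0.0426) and -0.78 for aged EGCG (adjusted p = 0.0305), both against young control. Leaving out 1 library kept the first of these calls in 5 of 9 fits (-1.07 to -0.551) and the second in 6 of 9 (-0.906 to -0.601). The endothelial ligand Dll4 averaged 0.673 ± 0.343, 0.443 ± 0.369 and 1.34 ± 0.712 CPM in the same order of groups, and was called lower in aged control than in young control (-1.62, SE 0.639, adjusted p = 0.023). That call held in 5 of 9 fits without 1 library (-2.45 to -1.17), and was lost without aged control replicate 1 or 2 and without young control replicate 1 or 3. Heyl and Notch4, both best known from blood vessels, were not called in any comparison. Dll3 had too few counts to be tested. Among the other receptors and ligands, 3 of 6 tested were lower in aged control than in young control, beside 33.8% of all genes. They were Dll4 and, named after their values were seen, Dner and Cntn1.

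Most of the enzymes that cut Notch were called higher in each aged group than in young control. Of 10 tested genes for furin, ADAM proteases and gamma-secretase subunits, 8 were called higher and 0 lower in aged control against young control, with a median log2 fold change of 0.535, beside 35.4% of all genes called higher. Psen2 and Aph1b were not called. Against young control, aged EGCG had 9 called higher and 0 lower, beside 32.3% of all genes, and the median was 0.469. Psen2 was not called there either. That direction turned with scaling to lens epithelium genes, where 1 was higher and 4 lower in aged control and the median was -0.16. Adam10, the protease of the cut that follows ligand binding, had 177, 171 and 172 CPM in aged EGCG, 161, 168 and 167 CPM in aged control, and 100.4, 101 and 103 CPM in young control libraries. It was 1.63-fold higher in aged control than in young control (adjusted p = 6.81e-16) and 1.71-fold higher in aged EGCG than in young control (adjusted p = 4.3e-17). Between aged EGCG and aged control none of the 10 was called by edgeR or by DESeq2, with 1 of the 10 at an unadjusted p under 0.05 in edgeR, while 3 were called higher with library size only.

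Of 4 ubiquitin ligases that make ligands active by endocytosis, 3 were called lower in aged control than in young control and 0 higher, beside 33.8% of all genes called lower. Neurl1b was not called. Neurl1a carried the largest of these changes. It had 8.78, 7.61 and 6.06 CPM in aged EGCG, 2.34, 2.76 and 1.39 CPM in aged control, and 15.8, 17.1 and 20.8 CPM in young control libraries, with no overlap between groups. Neurl1a was 8.15-fold lower in aged control than in young control (log2 fold change -3.03, SE 0.214, adjusted p = 4.03e-17) and 3.42-fold higher in aged EGCG than in aged control (1.77, SE 0.229, adjusted p = 1.91e-08). The rod and cone markers had the same order of groups, and of these all 29 were called lower in aged control than in young control and all 29 higher in aged EGCG than in aged control. Of all genes, 33.8% were called lower in the first of these comparisons and 13.8% higher in the second. The part of rods and cones in the values of Neurl1a was not tested.

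Fringe enzymes add sugars to Notch and tune its response to Delta and Jagged ligands. Lfng had 101, 101 and 89.6 CPM in aged EGCG, 104, 107 and 104 CPM in aged control, and 53.3, 60.9 and 56.9 CPM in young control libraries. It was 1.84-fold higher in aged control than in young control (adjusted p = 4.26e-16) and 1.71-fold higher in aged EGCG than in young control (adjusted p = 5.53e-14). On the lens epithelium scale no value was taken for Lfng. The median log2 fold change of all genes with age was -0.672 there, beside 0.0234 with TMM. Mfng was close to the floor in aged control, at 0.181 ± 0.17 CPM, beside 1.35 ± 0.583 CPM in aged EGCG and 2.51 ± 0.363 CPM in young control libraries (SD, n = 3 each). It was called in both comparisons with aged control, but its fitted fold changes rest on 0 to 5 counts in those libraries.

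Among genes that act on Notch after the signal, Nedd4, a ubiquitin ligase, was 1.58-fold higher in aged control than in young control (adjusted p = 2.95e-17). Aak1, a kinase of endocytosis, was 2.17-fold lower (adjusted p = 1.78e-20) and Dtx3, of the Deltex family, 1.79-fold lower (adjusted p = 1.73e-14) in the same comparison. For Nedd4, as for Lfng, no value was taken on the lens epithelium scale. Of the 11 tested genes for trafficking and turnover, 2 were higher and 5 lower with age, where 69.2% of all genes were called. With EGCG 1 was higher, where 24.1% of all genes were called. The corepressor Spen, which binds RBPJ, was 2.13-fold lower in aged control than in young control (adjusted p = 1.27e-14) and higher in aged EGCG than in aged control by 0.28 on the log2 scale (SE 0.0954, adjusted p = 0.0275). The second of these calls was lost with DESeq2, in limma, and without aged control replicate 1 or 2 or aged EGCG replicate 3 (0.165 to 0.412 without 1 library). Bend6, another RBPJ-binding corepressor, was higher in aged EGCG than in aged control (0.53, SE 0.172, adjusted p = 0.0201), a call lost without aged control replicate 1 or aged EGCG replicate 1 or 2 (0.439 to 0.631 without 1 library). Of 13 tested corepressors, 4 were higher and 6 lower with age. Of 8 coactivators, 3 were higher and 2 lower with age. Beside both lists, 69.2% of all genes were called with age. The acetyltransferase Ep300 was 1.87-fold lower in aged EGCG than in young control (adjusted p = 3.93e-12). The corepressor Ctbp2 was 1.66-fold lower in that comparison (adjusted p = 1.27e-13).

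Genes with the most similar course were found by the root mean square distance of log2 CPM over the 9 libraries, each profile centred on its mean, among 13701 other genes. For Hey1 the nearest was Srf, which encodes serum response factor, at a distance of 0.0658, with means of 35.0 CPM in aged EGCG, 60.1 CPM in aged control and 28.3 CPM in young control libraries. Fmod, for the collagen-binding proteoglycan fibromodulin, was nearest to Hes1 at 0.0889 and second for Hey1 at 0.089, and it averaged 55.8, 97.2 and 44.6 CPM in the same order of groups. Irgm1 ranked next for both, at 0.0994 for Hes1 and 0.0995 for Hey1, and Mfap4 was second for Hes1 at 0.0986. The nearest genes were Map3k1 for Notch1 (0.0708), Col1a2 for Notch2 (0.0674), Kif1a for Jag1 (0.0566), Ptk2b for Jag2 (0.0829) and Gtpbp6 for Rbpj (0.0284). The nearest genes of Dll1, Notch3 and Nrarp lay further off, at 0.141 for Mpp7, 0.198 for Tmem150a and 0.216 for Pdgfb. These 3 members had few counts per library, 84 to 243, 24 to 68 and 24 to 70. This distance also grows with counting noise, so it does not show a course of their own.

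Several marker lists had the same order of groups as Hes1 and Hey1. The summed level of the lens epithelium list was 6678 to 6856 CPM in aged EGCG, 7093 to 7384 CPM in aged control and 4447 to 4518 CPM in young control libraries, with 11 of 15 markers called higher and 0 lower in aged control against young control, and 0 higher and 8 lower in aged EGCG against aged control. The pericyte and smooth muscle list summed to 620 to 657, 843 to 893 and 413 to 431 CPM in the same order, led by Acta2 and Pdgfrb, although 7 of its 9 tested markers were lower with age and 2 higher. The corneal and surface epithelium list, led by Aldh3a1, summed to 822 to 843, 1097 to 1144 and 231 to 240 CPM, with 3 of 5 tested markers higher and 2 lower with age. The Müller glia list, led by Vim and Dkk3, summed to 8898 to 9105, 9807 to 10183 and 6118 to 6193 CPM, with 4 of 14 higher and 10 lower with age. The lens epithelium list holds Dkk3 as well. In aged EGCG against aged control, 3 of 9 pericyte and smooth muscle and 3 of 5 corneal markers were lower, with 0 higher. Of the 14 Müller glia markers, 3 were lower and 6 higher. Over all genes, 35.4% were called higher and 33.8% lower with age, and 13.8% higher and 10.3% lower with EGCG. No listed marker that is in the table was at 0 in all libraries. The part of these cell types in the levels of Hes1, Hey1 and Hes5 was not tested. With libraries scaled to the lens epithelium list, the log2 fold change of aged control against young control was 0.317 for Hes1, 0.419 for Hey1 and 0.539 for Hes5, each called.

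**Figure D4:**
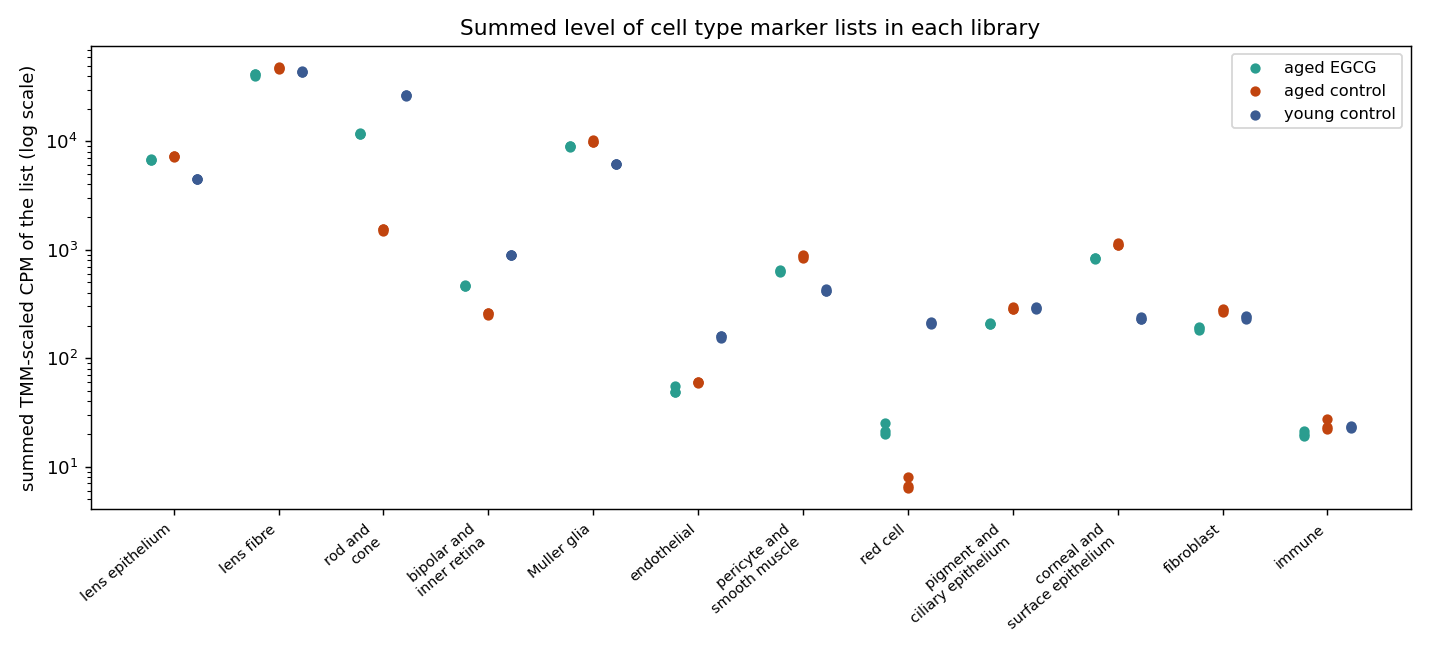
Summed level of each marker list in TMM-scaled CPM (vertical axis, log scale) in the aged EGCG, aged control and young control libraries, 1 point per library. Lens epithelium markers are highest in aged control and lowest in young control libraries, and rod and cone markers run the other way, with 1492 to 1556 CPM in aged control.

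Jag1 and Dll1 were lowest in aged control, and so were the lists of rods and cones, of bipolar and inner retinal cells and of red cells. The bipolar and inner retina list summed to 464 to 471 CPM in aged EGCG, 253 to 262 CPM in aged control and 886 to 903 CPM in young control libraries. Notch1 and Notch3 were lowest on average in aged EGCG, though Notch3 overlapped with aged control. The endothelial list had the same lowest group, with 48.7 to 55.0 CPM in aged EGCG, 59.0 to 60.9 CPM in aged control and 155 to 160 CPM in young control libraries. The pigment and ciliary epithelium list was lowest there too, at 205 to 209, 282 to 295 and 285 to 296 CPM in the same order. So were the lens fibre, fibroblast and immune lists. In aged EGCG against aged control, 2 of 14 endothelial markers were called lower and 1 higher. For the pigment list, 3 of 10 tested were lower and 2 higher. Lower were also 13 of 21 lens fibre, 2 of 7 fibroblast and 1 of 7 immune markers, with 0 higher. Of all genes, 10.3% were called lower and 13.8% higher there. Fibroblast markers summed to 183 to 196, 265 to 287 and 231 to 244 CPM in the same order of groups, which is the order of Notch2 and Jag2. Of 7 tested fibroblast markers, led by Fbln1, 2 were called higher and 3 lower with age, beside 69.2% of all genes called. The lens fibre list had that order of groups as well, at 40428 to 41807, 46562 to 48454 and 43759 to 44330 CPM. The means of the immune list did too, at 20.2, 24.4 and 23.0 CPM. The part of these cells in the 6 members' values was not tested.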

How the data were processed

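Per the labels' protocols, the sequencing libraries of the anterior lens capsules were built with the SMARTER mRNA-Seq kit. The build was GRCm38 (mm10), per the submitters' processing notes. The sources used here name no aligner, counting tool or strand setting. Whole-number read counts per gene symbol were deposited by the authors, as were FPKM values, which are scaled to gene length and library total. Counts were tested with the quasi-likelihood test of edgeR 4.0.16 (R 4.3.3) with TMM factors after filterByExpr, two-sided, in 1 fit of the 3 group means over 9 libraries. Adjustment was by Benjamini and Hochberg over 13711 genes, and genes were called under 0.05. The SE came from the fold change and its F statistic. Levels are TMM-scaled CPM.

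Alternatives were DESeq2 1.42.0, library size only, scaling to lens fibre genes or to lens epithelium genes, removal of the length trend, no filter, limma 3.58.1 on log2(FPKM + 1), only the 2 groups compared, the replicate number as a block, and each library left out. The length trend was fitted on the lengths implied by the FPKM values. For Rbpj and Jag1 these were 28807 and 11717 bases, against longest coding transcripts of 5485 and 5612 bases. The fit was tested on simulated data. Gene positions are from GENCODE M21. Between libraries of 1 group the mean chi-square per gene was at least 2.58, where sampling alone gives about 1, so none was treated as a duplicate. Intervals reflect counting and library-to-library spread, and nothing else.

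Named genes were all members, the 4 higher and 4 lower further pathway genes with the smallest p in each comparison, 6 close relatives (Hes5, Hey2, Heyl, Notch4, Dll4 and Dll3), and the 3 genes nearest to each member. Of these, 1 pathway gene is not reported here. Members and lists were chosen with earlier results of these data known.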

Additional observations from a re-analysis of the deposited data

How the results depend on the processing

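Hes1 and Hey1 kept their direction and call in aged control against young control and in aged EGCG against aged control under all 18 alternatives, as did Dll1 in the first and Jag1 in the second. The scaling of libraries moved most other results, and the cause was not tested. Scaling to lens epithelium genes was chosen after seeing the data. The median log2 fold change of all genes in aged control against young control was 0.0234 with TMM, -0.0855 on the lens fibre scale, -0.672 on the lens epithelium scale, -0.183 in limma and -0.298 with library size only. Calls in that comparison were 4847 higher and 4635 lower with TMM, and 2939 and 6442 with library size only. For aged EGCG against aged control they were 1894 and 1406 with TMM, 4510 and 429 on the lens fibre scale, and 3086 and 611 with library size only. For aged EGCG against young control they were 4424 and 4301 with TMM, and 3102 and 5569 with library size only.

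In aged control against young control, 2 members were called higher on the lens fibre scale, in limma, on the lens epithelium scale and with library size only, and 1 was lower with the length trend removed and 7 on the lens epithelium scale. Further pathway genes called higher numbered 11 with library size only and 13 in limma. Library size only turned Notch2 (-0.144), Jag2 (-0.142) and Nrarp (-0.134), and limma turned the same genes (-0.119, -0.109 and -0.0688). The length trend turned Notch1 (0.177), Notch3 (0.295), Jag1 (0.258) and Nrarp (-0.011), and the lens epithelium scale Notch2 (-0.52), Jag2 (-0.516), Rbpj (-0.363) and Nrarp (-0.505).

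Between aged EGCG and aged control, 2 members were higher and 3 lower on the lens fibre scale, and 2 were lower in limma. Further pathway genes higher numbered 3 with DESeq2 and with only the 2 groups compared, 22 on the lens fibre scale, 8 in limma and 14 with library size only, and those lower 4, 5 and 5 under the last 3. Rbpj turned to 0.142 on the lens fibre scale, 0.0289 in limma, 0.0443 on the lens epithelium scale and 0.0692 with library size only. Between aged EGCG and young control, 0 members were higher with DESeq2, library size only, limma and the lens epithelium scale, and lower were 1 on the lens fibre scale, 5 in limma, 9 on the lens epithelium scale and 6 with library size only. Further pathway genes higher numbered 11 with library size only and 12 in limma. Jag1 turned to -0.00142 with DESeq2, -0.146 with library size only, -0.133 in limma and -0.545 on the lens epithelium scale, where Rbpj (-0.319), Hes1 (-0.319) and Hey1 (-0.296) turned too. Nrarp turned on the lens fibre scale (0.0306), and Notch2 (0.225) and Hes1 (-0.036) with the length trend removed.

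Leaving out each library gave 1 to 2 members higher and 3 to 5 further pathway genes higher in aged EGCG against aged control, and 0 to 3 members higher and 1 to 3 lower in aged EGCG against young control. Without a library Notch3 ranged from -0.214 to 0.132 in aged control against young control. Nrarp ranged from -0.782 to 0.00524 in aged EGCG against aged control and from -0.589 to 0.195 against young control. Libraries with the same replicate number did not deviate together (r -0.0201 to 0.0298 over 9 pairs, beside -0.021 to 0.0365 for different numbers), and with the replicate block the counts of members stayed at 4 higher and 3 lower, 1 and 5, and 3 and 3. Notch3 and Nrarp rest on few counts, and their intervals are wide.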
